A study of Mus musculus with 6 samples.

Results

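The SR, hnRNP, PTB and KHDRBS proteins are families of RNA-binding regulators of splice site choice. Their genes were taken from the deposited expression table by symbol (Srsf, Hnrnp, Ptbp or Khdrbs followed by its member code, without pseudogene symbols), which gave 37 genes of 24525 rows: 11 SR, 20 hnRNP, 3 PTB and 3 KHDRBS genes. The rule uses symbols alone, though the families were picked with earlier results of these data known. RNA came from hearts of mice aged 3 to 6 months, with 3 libraries labelled WT (replicates 4, 5 and 6) and 3 labelled DKO (replicates 7, 8 and 9). Per the labels, DKO mice were Mbnl1-/-; Mbnl2cond/cond; Myh6-Cre+/-, so that Mbnl1 was null in every cell and Mbnl2 was targeted only where the Myh6 promoter drives Cre, in cardiomyocytes. Whether the WT mice carried Cre or the conditional allele is not given in the sources used here. Values are TPM (transcripts scaled for their length and for the library total) per gene and library. Where 3 values of a group follow each other, they are those of DKO 7, 8 and 9 or of WT 4, 5 and 6, in this order. Means are ± SD over n = 3 libraries per group, log2 differences are those of log2(TPM + 1), DKO minus WT, and a gene was called at an adjusted p under 0.05 (limma with Benjamini-Hochberg adjustment over all genes tested).

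SR proteins carry RNA recognition motifs and a tail rich in serine and arginine, and mostly recruit the splicing machinery to exons that hold enhancer sequences. hnRNP proteins coat nascent RNA, and many of them, like the PTB proteins that bind CU-rich tracts, silence exons or keep splice sites apart. KHDRBS proteins bind A/U-rich RNA through a KH domain and link splicing to signalling. In muscle these factors act on many of the same pre-mRNAs as the MBNL proteins, and their own transcripts are commonly held at a set level by feedback through unproductive splicing, which a gene-level TPM does not resolve.

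Limits of the libraries bear on all values below. The tag for genotype on replicate 7 reads WT, against a title and source that read DKO, and the title was followed. Mbnl1 (muscleblind like 1) had 102, 108 and 107 TPM in DKO against 161, 159.8 and 145 TPM in WT and fell (-0.55 on the log2 scale, 95% interval -0.71 to -0.38; adjusted p = 0.00673). Mbnl2 had 227, 239.7 and 245 TPM in DKO against 189, 168 and 149 TPM in WT and rose (0.49 on the log2 scale, 95% interval 0.27 to 0.72; adjusted p = 0.0232). The gene-level value of Mbnl2 thus runs against the deletion its label names. That of Mbnl1, null by its label, remained in DKO at 0.683 times its WT mean. WT and DKO stand here for the libraries labelled so. Which exons were removed is not given in the sources used here. For Mbnl1 and Mbnl2 alike, replicate 7 lay outside the range of the WT libraries, on the same side as DKO 8 and DKO 9. Xist was present in DKO 7 and DKO 8, at 152 and 174 TPM, whereas DKO 9 and the WT libraries had Y-linked transcripts. Heart identity was checked with 6 cardiomyocyte markers, which summed to 55559 to 57266 TPM in WT and 53869 to 54566 TPM in DKO, and all 6 were detected. Of these, 0 were higher and 1 lower, Ryr2 (-0.51 on the log2 scale, 95% interval -0.72 to -0.31; adjusted p = 0.0166), and the groups of Myh6, Pln and Ryr2 did not overlap, with the lower values in DKO, nor did those of Actc1, with the higher values in DKO. The labels do not tie libraries to separate animals, and p-values then measure only the spread among these libraries, which may be technical. The depth behind a value is unknown, since TPM holds no counts. In whole hearts, fewer cells of a type and less RNA per cell cannot be told apart.

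The splicing factors differed little between WT and DKO hearts. Of the 37 genes, 35 had at least 1 TPM in at least 3 libraries and were tested. A single one, Srsf4, was higher in DKO and 0 were lower (limma), or 2.86% of those tested, beside 10.7% of all 14541 genes tested (6.51% higher and 4.22% lower). At an unadjusted p under 0.05 there were 4 genes, Srsf4, Hnrnpu, Hnrnpm and Srsf3, beside 27.0% of all genes tested. The median log2 difference of the 35 genes was 0.021, beside 0.033 over all genes tested, and the median of its size was 0.080 beside 0.204. 20 genes had a positive and 15 a negative difference. Without DKO 7, and with replicate 7 placed in WT, 0 of the 35 genes were called in either direction (limma), as against 1. Over the whole table the first of these fits called 507 genes higher and 307 lower, and the second 0 higher and 1 lower.

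The intervals of these differences were narrow. For 34 of 35 genes the 95% interval of the log2 difference lay entirely inside a 1.5-fold change in either direction, beside 51.3% of all genes tested. Srsf4 was the exception, with an upper bound of 1.52-fold. This count is that of the main fit and was not taken in the alternatives. It does not hold in all of them. A 1.5-fold change is 0.585 on the log2 scale. The lower bound of Hnrnpa0 passed it without WT 4 (-0.603), without DKO 8 (-0.602) and without DKO 9 (-0.595). The median half-width of the interval was 0.207 on the log2 scale, beside 0.344 over all genes tested, and the median residual SD 0.0912 beside 0.173. The genes were also more abundant than most, with a median level of 64.01 TPM beside 16.6 TPM over all genes tested, and the part of abundance in the narrower intervals was not tested. A gene whose interval spans 0 is thus not shown to be equal in both groups, only to differ by less than its bounds.

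**Figure D1:**
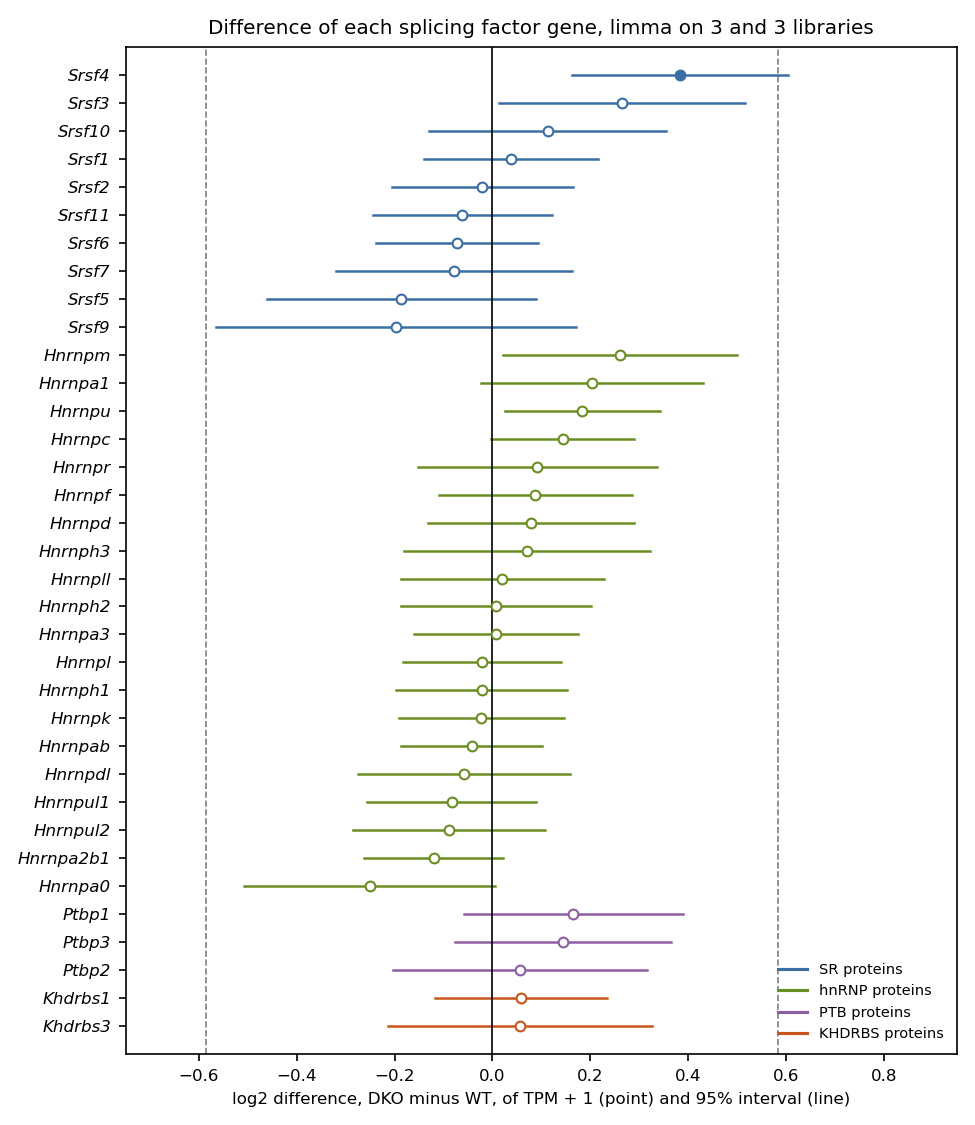
Log2 difference (DKO minus WT, of TPM + 1; horizontal axis) of each of the 35 tested genes with its 95% interval from limma on 3 and 3 libraries; dashed lines mark a 1.5-fold change, and the filled point is the gene with an adjusted p under 0.05. Srsf4, at 0.38, is the single filled point, and 34 of 35 intervals stay between the dashed lines.

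**Figure D2:**
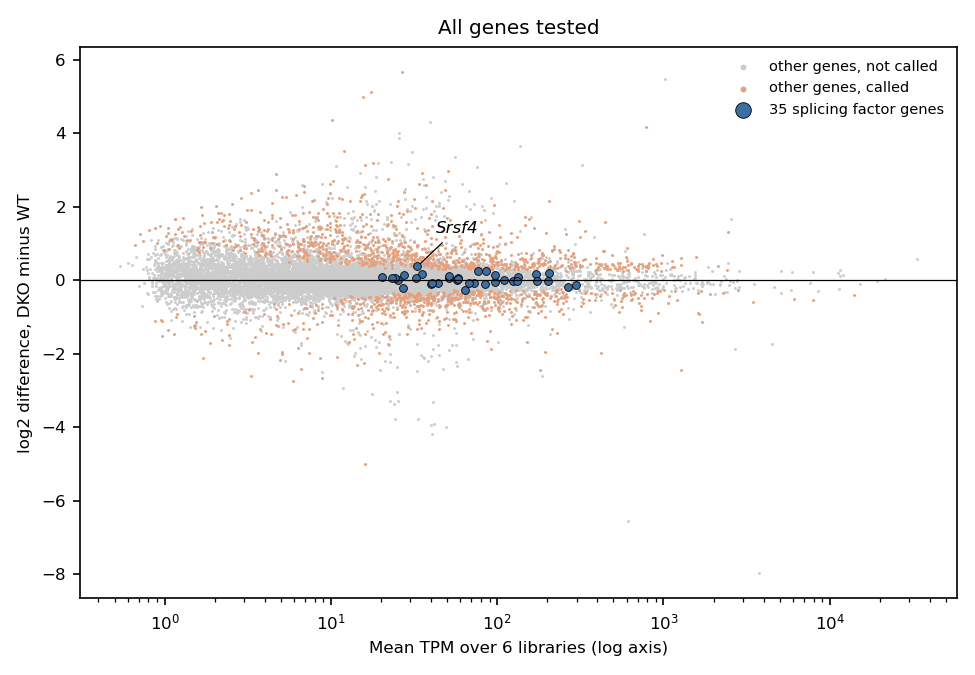
Log2 difference (DKO minus WT, vertical axis) against mean TPM over 6 libraries (horizontal log axis) for all 14541 genes tested, with called genes in orange and the 35 splicing factor genes as outlined blue points. The blue points lie between -0.25 and 0.38, in the middle of the cloud at their level.

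Levels ranged from 20.4 to 299.6 TPM as means over the 6 libraries. Hnrnpa2b1, which binds exonic silencers and sorts RNA for transport, had the highest level, with 284, 279 and 298 TPM in DKO against 319.7, 319 and 298 TPM in WT. Its WT and DKO values overlapped only through WT 6 and DKO 9, which differed by under 1 TPM, and it was not called (-0.12 on the log2 scale, 95% interval -0.26 to 0.022; adjusted p = 0.253). Srsf5 came next at 268 TPM, then Hnrnpa1 at 205, Hnrnpk at 202, Hnrnpl at 173 and Hnrnpu at 171 TPM, and the ranges of neighbours in this order overlapped, except those of Hnrnpk and Hnrnpl. The lowest of the tested genes were Hnrnpr (18.96 to 23.2 TPM), Hnrnpd (22.1 to 25.8 TPM) and Ptbp2 (21.03 to 26.5 TPM). Within 1 gene the highest of the 6 libraries exceeded the lowest by a median factor of 1.21, from 1.10 for Hnrnpab to 1.52 for Srsf4, while over all genes tested that median was 1.52.

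**Figure D3:**
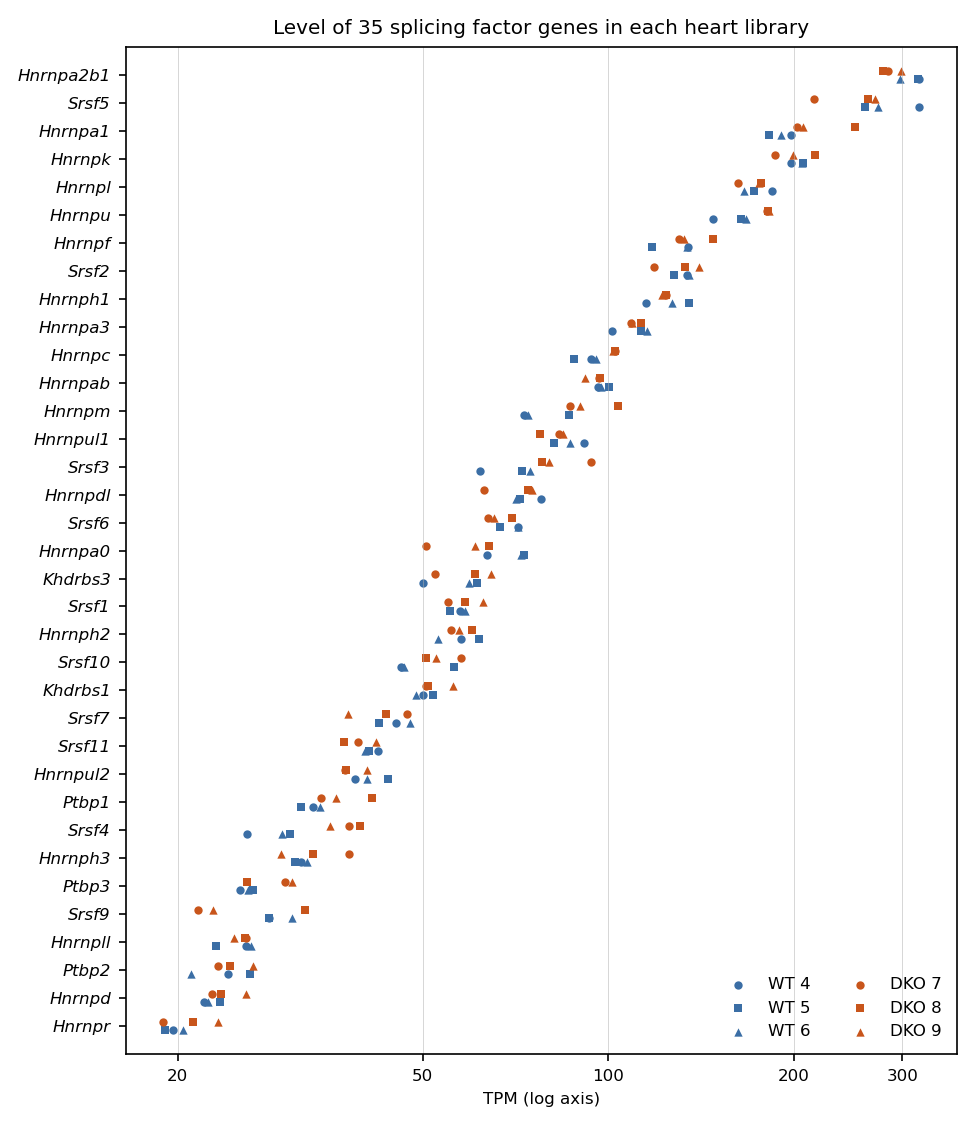
TPM (horizontal log axis) of the 35 tested splicing factor genes in each of the 6 libraries, ordered by mean level, with WT in blue and DKO in orange and a symbol shape for each library. Differences between genes, from 20.4 to 299.6 TPM in the mean, are far larger than differences between libraries of 1 gene, which are at most 1.52-fold.

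Srsf4 encodes a classical SR protein with a long arginine-serine tail, a paralogue of Srsf5 and Srsf6 with a pair of RNA recognition motifs. The gene (chromosome 4, 131873530 to 131901725 on GRCm38) had 37.9, 39.5 and 35.4 TPM in DKO against 25.96, 30.4 and 29.5 TPM in WT. All 3 DKO values lay above all 3 WT values, with 35.4 TPM in DKO 9 as the lowest of the DKO and 30.4 TPM in WT 5 as the highest of the WT libraries. The log2 difference was 0.38 (SE 0.0931; 95% interval 0.16 to 0.60; adjusted p = 0.0461), a 1.305-fold level, and permuting the libraries in every way (exact, two-sided) gave p = 0.1, the smallest that 3 against 3 allow. The log2 difference was positive in all 17 alternatives tried, from 0.28 to 0.43. Because the groups did not overlap, its sign could not turn when a library was left out. Nor could it turn with a sex-linked term or among libraries with Y-linked transcripts. The call was lost when any 1 library was left out. The limma BH adjusted p then ran from 0.0717 without WT 5 to 0.134 without DKO 8. It was 0.118, 0.101, 0.109 and 0.0784 without WT 4, WT 6, DKO 7 and DKO 9. Among the libraries with Y-linked transcripts alone, where DKO 9 stands against 3 WT libraries, the log2 difference was 0.300 (adjusted p = 0.402, with the lone DKO library assumed to vary as the WT ones do).

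Markers of other cell types moved between the same groups. Fibroblast markers summed to 787 to 803 TPM in WT and 902 to 1067 TPM in DKO (3 of 6 higher, 0 lower), macrophage markers to 325 to 447 TPM in WT and 509.9 to 719.6 TPM in DKO (3 of 6 higher, 0 lower) and markers of dividing cells to 10.2 to 14.2 TPM in WT and 25.3 to 27.2 TPM in DKO (3 of 4 higher, 0 lower). Smooth muscle markers summed to 122 to 177 TPM in WT and 210.4 to 339.5 TPM in DKO (1 of 4 higher, 1 lower). The rise of that sum was that of Acta2 (228 ± 63.3 TPM in DKO and 66.5 ± 11.1 in WT hearts), while Tagln fell (24.1 ± 2.66 TPM in DKO and 43.6 ± 6.61 in WT hearts), and Myh11 and Cnn1 were not called (18.6 ± 3.50 TPM in DKO and 31.4 ± 7.45 in WT hearts, and 2.40 ± 0.805 TPM in DKO and 4.70 ± 4.75 in WT hearts). Endothelial markers summed to 619 to 711 TPM in WT and 544 to 620.5 TPM in DKO (0 of 5 higher, 2 lower). In no library was a marker list at 0, and the part of these cells in the Srsf4 value was not tested. Lymphocyte markers summed to 10.3 to 20.5 TPM in WT and 9.15 to 11.1 TPM in DKO (0 higher and 1 lower, Cd79a, of 2 tested), and neuronal markers to 0.787 to 2.49 TPM in WT and 2.04 to 2.78 TPM in DKO (0 of 1 tested called, with 0 at an unadjusted p under 0.05; limma). Erythroid markers, whose share moves every other TPM value, summed to 6042 to 38458 TPM in WT and 1781 to 6763 TPM in DKO (0 of 5 called; limma, with 5 at an unadjusted p under 0.05).

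The stretches around the annotated starts of Srsf4 and of Srsf3, the SR gene with the next largest positive difference, are shown because Srsf4 is the one gene called and its window differs in motifs from that of Srsf3. Both are RefSeq windows on GRCm38.p6 from 250 bases before to 50 bases after a start, written 5′ to 3′ along the gene, with capitals where a motif was found on either strand. The motifs were TATAAA for the TATA box, CCAAT for the CCAAT box and GGGCGG for the GC box, and no match shown here shares a base with another. The Srsf4 window is chr4:131873387-131873686 on the + strand, and that of Srsf3 is chr17:29032410-29032709 on the + strand.
Srsf4: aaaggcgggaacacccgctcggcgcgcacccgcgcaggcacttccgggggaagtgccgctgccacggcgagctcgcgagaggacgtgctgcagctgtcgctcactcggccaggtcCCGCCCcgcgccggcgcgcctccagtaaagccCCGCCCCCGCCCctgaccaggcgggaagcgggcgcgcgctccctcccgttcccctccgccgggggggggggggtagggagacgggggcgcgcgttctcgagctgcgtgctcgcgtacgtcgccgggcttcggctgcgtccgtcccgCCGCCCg
Srsf3: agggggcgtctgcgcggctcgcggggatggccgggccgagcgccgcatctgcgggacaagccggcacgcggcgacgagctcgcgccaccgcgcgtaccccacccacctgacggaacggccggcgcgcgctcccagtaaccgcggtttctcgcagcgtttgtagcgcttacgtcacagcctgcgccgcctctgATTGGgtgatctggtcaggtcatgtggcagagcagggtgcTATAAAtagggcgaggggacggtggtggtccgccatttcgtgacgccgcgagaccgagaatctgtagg
The Srsf4 window shown held 4 matches to the GC box and 0 to the other motifs, and 49 CG dinucleotides. RefSeq gives 3 windows for Srsf4, and the one that starts first along the gene was printed. The next, from 131873389, held 4 GC boxes and 49 CG dinucleotides, and the last, at 131873810 to 131874109, held 2 and 38. The Srsf3 window held 1 TATA box and 1 CCAAT box match, 0 of the GC box, and 42 CG dinucleotides. The pattern of Srsf4 is not particular to it. Windows of Srsf5, Srsf6, Srsf7, Srsf9, Srsf11 and Srsf12, none of them called, also held a GC box without a TATA or CCAAT match. Those of Srsf1, Srsf2 and Srsf10 held a CCAAT match beside the GC box. Windows were given for 32 of the 37 genes, 44 windows in all since some genes have several starts. The GC box was present in 84.1% of these and 35.7% of all 32851 windows, the CCAAT box in 52.3% and 37.4%, and the TATA box in 9.09% and 13.6%. The median number of CG dinucleotides was 29.5 in the windows of these genes and 7 in all windows. A match describes the letters of the window and shows no bound factor.

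Among the SR genes, 10 of 11 were tested, with a median log2 difference of -0.041. Srsf12, the remaining one, lay between 0 and 0.486 TPM and was not tested. The summed SR level was 751, 807 and 811 TPM in DKO against 832, 781 and 809 TPM in WT, so the groups overlapped. Srsf3, a small SR protein and an adaptor for mRNA export, had 93.8, 77.98 and 80.1 TPM in DKO against 61.97, 72.4 and 74.7 TPM in WT. Its groups did not overlap, but the gene was not called (0.27 on the log2 scale, 95% interval 0.014 to 0.52; adjusted p = 0.164), and the gap between DKO 8 and WT 6 was small beside the spread within DKO. Srsf5 had 216, 264 and 271 TPM in DKO against 319, 261 and 274 TPM in WT, with the highest value in WT 4 and the lowest in DKO 7, and was not called (-0.19 on the log2 scale, 95% interval -0.46 to 0.089; adjusted p = 0.358). WT 4 and DKO 7 were the extremes of Srsf3 too, in the opposite order.

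The groups of the other SR genes overlapped. Srsf9, which has a short arginine-serine tail, had 21.6, 32.2 and 22.9 TPM in DKO against 28.2, 28.2 and 30.6 TPM in WT, and the span of its DKO values covered all its WT values (-0.20 on the log2 scale, 95% interval -0.56 to 0.17; adjusted p = 0.474). Srsf10, a splicing repressor when dephosphorylated, had 57.6, 50.6 and 52.5 TPM in DKO against 46.03, 56.1 and 46.6 TPM in WT, with overlapping groups (0.11 on the log2 scale, 95% interval -0.13 to 0.36; adjusted p = 0.534). Srsf1, the founding SR protein, which shapes the splicing of calcium-handling kinases in heart, had 58.7 ± 3.77 TPM in DKO and 57.1 ± 1.62 in WT hearts (adjusted p = 0.792), and Srsf2, which binds enhancers of both purine- and pyrimidine-rich kind, 131 ± 10.99 TPM in DKO and 132 ± 3.81 in WT hearts (adjusted p = 0.9). Srsf6, the paralogue nearest in kind to Srsf4, had 63.9, 69.9 and 65.3 TPM in DKO against 71.5, 66.7 and 71.2 TPM in WT, with overlapping groups (-0.072 on the log2 scale, 95% interval -0.24 to 0.094; adjusted p = 0.568). Srsf11 had 39.3, 37.2 and 41.96 TPM in DKO against 42.4, 40.9 and 40.3 TPM in WT, and its groups overlapped as well (-0.061 on the log2 scale, 95% interval -0.24 to 0.12; adjusted p = 0.668). Srsf7, which carries a zinc knuckle beside its RNA recognition motif, lay between 37.8 and 47.7 TPM, and its lowest value was in DKO 9.

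All 20 hnRNP genes were tested and 0 were called (limma), beside 10.7% of all genes tested. At an unadjusted p under 0.05 there were 2, beside 27.0% of all genes tested. The median log2 difference of the 20 genes was 0.0077. Their summed level was 2061, 2211 and 2132 TPM in DKO against 2090.4, 2115 and 2097 TPM in WT, with DKO 7 the lowest and DKO 8 the highest of the 6 libraries. Hnrnpu, a chromatin-bound scaffold protein also named SAF-A, had 181, 182 and 182 TPM in DKO against 148, 165 and 168 TPM in WT. The 3 DKO values lay within 1 TPM of each other and above the WT values, of which WT 4 was the lowest, and the gene missed the threshold (0.18 on the log2 scale, 95% interval 0.025 to 0.34; adjusted p = 0.132). Hnrnpc, which binds uridine tracts, had 103, 102 and 102 TPM in DKO against 93.9, 88.1 and 95.6 TPM in WT, with close DKO values above the WT values and WT 5 as the lowest library (0.14 on the log2 scale, 95% interval -0.0020 to 0.29; adjusted p = 0.191). Hnrnpm, an exon-silencing protein, had 86.6, 104 and 89.98 TPM in DKO against 72.9, 86.3 and 74.1 TPM in WT; the lowest DKO value, in DKO 7, was within 1 TPM of the highest WT value, in WT 5 (0.26 on the log2 scale, 95% interval 0.022 to 0.50; adjusted p = 0.153). Hnrnpa1, a repressor that competes with SR proteins for exons, had 202, 252 and 207 TPM in DKO against 198, 183 and 190.4 TPM in WT, and DKO 8 stood above the other 5 libraries (0.20 on the log2 scale, 95% interval -0.023 to 0.43; adjusted p = 0.226).

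Further hnRNP genes had differences as small, of either sign, and those of Hnrnpf, Hnrnph2, Hnrnpd and Hnrnpr were positive. Hnrnpa0, a binder of AU-rich elements in stress responses, had 50.7, 63.98 and 60.8 TPM in DKO against 63.6, 72.9 and 72.1 TPM in WT. WT 4 lay among the DKO values, and the gene was not called (-0.25 on the log2 scale, 95% interval -0.51 to 0.0063; adjusted p = 0.196). Hnrnpul1, a relative of Hnrnpu with a role at DNA breaks, had 83.1, 77.4 and 84.6 TPM in DKO against 91.3, 81.7 and 86.8 TPM in WT (-0.083 on the log2 scale, 95% interval -0.26 to 0.089; adjusted p = 0.521), and Hnrnpul2 had 37.4, 37.6 and 40.6 TPM in DKO against 38.7, 43.96 and 40.5 TPM in WT (-0.089 on the log2 scale, 95% interval -0.28 to 0.11; adjusted p = 0.549). Both groups of both genes overlapped. Hnrnpf, a binder of G-runs, had 130.4, 148 and 133 TPM in DKO against 134, 118 and 134 TPM in WT, with WT 5 lowest and DKO 8 highest (0.088 on the log2 scale, 95% interval -0.11 to 0.28; adjusted p = 0.558). The related Hnrnph1 and Hnrnph2 had 123 ± 1.08 TPM in DKO and 126 ± 10.04 in WT hearts and 57.7 ± 2.37 TPM in DKO and 57.4 ± 4.44 in WT hearts (adjusted p = 0.885 and 0.968). Hnrnpd, also named AUF1, and Hnrnpr had 22.7, 23.6 and 25.8 TPM in DKO against 22.1, 23.5 and 22.4 TPM in WT, and 18.96, 21.2 and 23.2 TPM in DKO against 19.7, 19.1 and 20.4 TPM in WT, with DKO 9 highest for both genes and the groups overlapping.

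The hnRNP genes with the least difference included abundant ones. Hnrnpk, which binds C-rich RNA, had 201 ± 15.02 TPM in DKO and 204 ± 5.25 in WT hearts, and Hnrnpl, which binds CA repeats, had 172 ± 8.10 TPM in DKO and 174 ± 9.16 in WT hearts. Hnrnpa3 had 110.5 ± 2.12 TPM in DKO and 110.0 ± 7.52 in WT hearts. The limma BH adjusted p was 0.879, 0.879 and 0.963 for the 3 genes, and their 95% intervals allow a level in DKO between 0.876 and 1.13 times that in WT. Hnrnpll, Hnrnpdl, Hnrnpab and Hnrnph3 also had overlapping groups, with log2 differences of 0.021, -0.057, -0.042 and 0.071.

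Groups did not overlap for 7 of the 35 tested genes, all higher in DKO, beside 33.0% of all genes tested (19.1% higher and 13.8% lower). These were Srsf4, Hnrnpu, Hnrnpm, Srsf3, Hnrnpc, Hnrnpa1 and Ptbp1, or 20% of the tested genes. On GRCm38 the 6 beside Srsf4 lie at chromosome 1, 178321108 to 178338891, chromosome 17, 33646233 to 33685458, chromosome 17, 29032660 to 29043372, chromosome 14, 52073377 to 52104039, chromosome 15, 103239943 to 103246698 and chromosome 10, 79854432 to 79864435, in the order named. The gap between the groups was larger than the range within either for Srsf4, and for Hnrnpa1 and Ptbp1 it was narrow beside the spread within DKO.

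**Figure D4:**
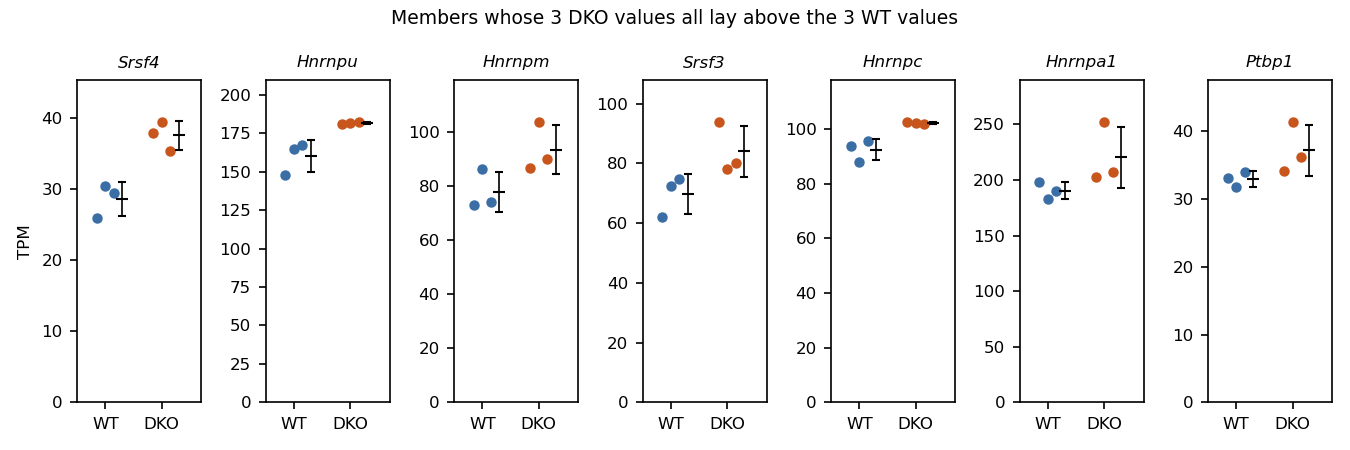
TPM (vertical axis, from 0) of the 7 genes whose 3 DKO values (orange) all lay above the 3 WT values (blue), with replicates 4 to 6 and 7 to 9 from left to right and the mean ± SD in black beside each group. Srsf4, from 28.6 to 37.6 TPM in the mean, was called; the other 6 were not.

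The 3 PTB genes were all tested, none was called (limma, with 0 at an unadjusted p under 0.05), and all had a positive log2 difference. Over all genes tested, 10.7% were called and 27.0% had an unadjusted p under 0.05. With 3 genes, 0 called does not set them apart from these shares. Ptbp1, the widely expressed repressor of tissue-specific exons that is lowered as muscle and neurons mature, had 34.1, 41.4 and 36.2 TPM in DKO against 33.2, 31.8 and 34.02 TPM in WT. The groups were separated by 34.1 TPM in DKO 7 against 34.02 TPM in WT 6, and the gene was not called (0.17 on the log2 scale, 95% interval -0.059 to 0.39; adjusted p = 0.315). Ptbp2, the paralogue known for its switch with Ptbp1 in neurons, had 23.3, 24.4 and 26.5 TPM in DKO against 24.1, 26.2 and 21.03 TPM in WT, with fully overlapping groups (0.057 on the log2 scale, 95% interval -0.20 to 0.32; adjusted p = 0.786). Ptbp3 had 29.9, 25.9 and 30.6 TPM in DKO against 25.3, 26.5 and 26.03 TPM in WT; DKO 8 lay among the WT values (0.14 on the log2 scale, 95% interval -0.077 to 0.36; adjusted p = 0.379). The summed PTB level was 87.2, 91.7 and 93.4 TPM in DKO against 82.6, 84.4 and 81.1 TPM in WT, so each DKO library lay above each WT library in this sum. The share of each gene in it differed by less than the larger of its SDs. Ptbp1 took 39.9 ± 2.18% of the PTB sum in WT and 41.00 ± 3.60% in DKO, Ptbp2 28.7 ± 2.57% and 27.2 ± 1.04%, and Ptbp3 31.3 ± 0.759% and 31.8 ± 3.11%.

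Of the KHDRBS genes, Khdrbs1 and Khdrbs3 were tested and neither was called (limma, with 0 at an unadjusted p under 0.05). The shares over all genes tested were 10.7% and 27.0%. Khdrbs1, which encodes Sam68, had 50.6, 50.9 and 55.9 TPM in DKO against 50.1, 52.02 and 48.8 TPM in WT (0.059 on the log2 scale, 95% interval -0.12 to 0.23; adjusted p = 0.671). Khdrbs3, which encodes the paralogue named SLM2 or T-STAR, had 52.4, 60.7 and 64.5 TPM in DKO against 49.96, 61.2 and 59.5 TPM in WT, with WT 4 the lowest of the 6 (0.056 on the log2 scale, 95% interval -0.21 to 0.33; adjusted p = 0.797). The level of Khdrbs3 was thus at least that of the widely expressed Khdrbs1 in all libraries but WT 4, where they were within 1 TPM. Khdrbs2, the SLM1 gene of neurons, was listed at 0 in all 6 libraries. Khdrbs1 took 47.03 ± 2.67% of the KHDRBS sum in WT and 47.1 ± 1.82% in DKO.

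Summed over all 37 genes, the level was 3002, 3221 and 3157 TPM in DKO against 3105, 3094 and 3095 TPM in WT. The mean was 3098 ± 6.15 TPM in WT and 3127 ± 113 TPM in DKO, so the WT sums were close together, while DKO 7 was the lowest and DKO 8 the highest of all 6. Per gene, DKO 7 was the lowest library for 11 of the 35 tested genes and WT 4 for 10, while WT 6, DKO 8 and DKO 9 were lowest for 3 each. The highest library was DKO 9 for 9 genes, WT 4 and DKO 8 for 7 each and WT 5 for 5. The median distance of a library from the 6-library median of each gene was 0.0306 (DKO 8) to 0.0743 (DKO 7) on the log2 scale for these genes, beside 0.122 to 0.154 for all genes tested.

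Other genes of the splicing pathway were taken from lists by role. Of 78 genes in 5 lists, all tested, 5 were higher in DKO and 0 lower, beside 10.7% of all genes tested, and their median log2 difference was 0.037. The kinases that phosphorylate SR tails (Srpk1 to Srpk3 and Clk1 to Clk4) gave 0 of 7 called in either direction and 0 at an unadjusted p under 0.05 (limma), with a median log2 difference of -0.10. Srpk1 had 28.3 ± 1.80 TPM in DKO and 31.8 ± 2.01 in WT hearts (adjusted p = 0.314), and Clk1 81.02 ± 2.50 TPM in DKO and 88.9 ± 13.5 in WT hearts (adjusted p = 0.531). The importins of SR and hnRNP proteins gave 0 of 3 called, with 0 at an unadjusted p under 0.05 (limma). Over all genes tested, 27.0% had an unadjusted p under 0.05. The importins were Tnpo1, Tnpo2 and Tnpo3, with log2 differences of 0.14, -0.11 and 0.016.

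Of 16 SR-like and SR-related factors 1 was higher and 0 lower, beside 6.51% higher and 4.22% lower of all genes tested. Luc7l, a homologue of a yeast U1 snRNP protein that helps choose 5′ splice sites, rose, with 42.7, 44.96 and 44.2 TPM in DKO against 29.6, 35.8 and 33.9 TPM in WT and no overlap (0.40 on the log2 scale, 95% interval 0.19 to 0.62; adjusted p = 0.0382). Of 22 hnRNP-like and PTB cofactor genes 1 was higher and 0 lower. Tia1, which binds uridine-rich RNA downstream of 5′ splice sites, rose, with 18.9, 20.6 and 21.01 TPM in DKO against 13.3, 15.5 and 15.2 TPM in WT (0.43 on the log2 scale, 95% interval 0.18 to 0.68; adjusted p = 0.0456). Syncrip, the hnRNP Q gene and the nearest relative of Hnrnpr, had 75.9, 82.2 and 78.1 TPM in DKO against 55.5, 69.1 and 58.2 TPM in WT and narrowly missed the threshold (0.37 on the log2 scale, 95% interval 0.14 to 0.60; adjusted p = 0.0563), as did Matr3, a partner of PTB, with 96.6 ± 0.878 TPM in DKO and 82.1 ± 3.79 in WT hearts (adjusted p = 0.0627). Pcbp2, a binder of C-rich RNA, had 142 ± 3.37 TPM in DKO and 165 ± 13.01 in WT hearts (adjusted p = 0.123).

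Of 30 core spliceosome genes 3 were higher and 0 lower, beside 6.51% higher and 4.22% lower of all genes tested. Members of the Sm ring, which holds the snRNA in most spliceosomal snRNPs, had differences of either sign. Snrpd2, which encodes the Sm ring protein SmD2, rose, with 244, 261 and 243 TPM in DKO against 200.4, 181 and 183 TPM in WT. The lowest DKO value was 243 TPM against 200.4 TPM as the highest WT value (0.40 on the log2 scale, 95% interval 0.24 to 0.56; adjusted p = 0.0155). Snrpe, also of the Sm ring, rose, with 104, 104 and 119 TPM in DKO against 82.1, 74.97 and 87.4 TPM in WT (0.41 on the log2 scale, 95% interval 0.21 to 0.62; adjusted p = 0.0317), and Snrpc, a U1 snRNP protein, rose, with 54.9, 55.3 and 52.3 TPM in DKO against 42.2, 42.7 and 44.5 TPM in WT (0.32 on the log2 scale, 95% interval 0.16 to 0.48; adjusted p = 0.0311). Snrpd3 and Snrpf, also of the Sm ring, had negative log2 differences of -0.35 (adjusted p = 0.214) and -0.22 (adjusted p = 0.264), and that of Snrpd3 was the lowest of all 78 genes. The other listed ring genes, Snrpg, Snrpb and Snrpd1, had positive ones of 0.35 (limma adjusted p = 0.176), 0.085 and 0.032, and were not called. In the 17 alternatives the direction of the 5 called genes was kept. Their groups did not overlap, so leaving out 1 library could not turn it. Snrpd2 was called in 11 of them, and its call was lost without WT 6 or DKO 8, with adjusted p of 0.0544 and 0.057. Luc7l, Snrpc and Snrpe were called in 7 and Tia1 in 5, and for these 4 genes the call was lost when any 1 library was left out, with adjusted p from 0.0522 to 0.127.

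**Figure D5:**
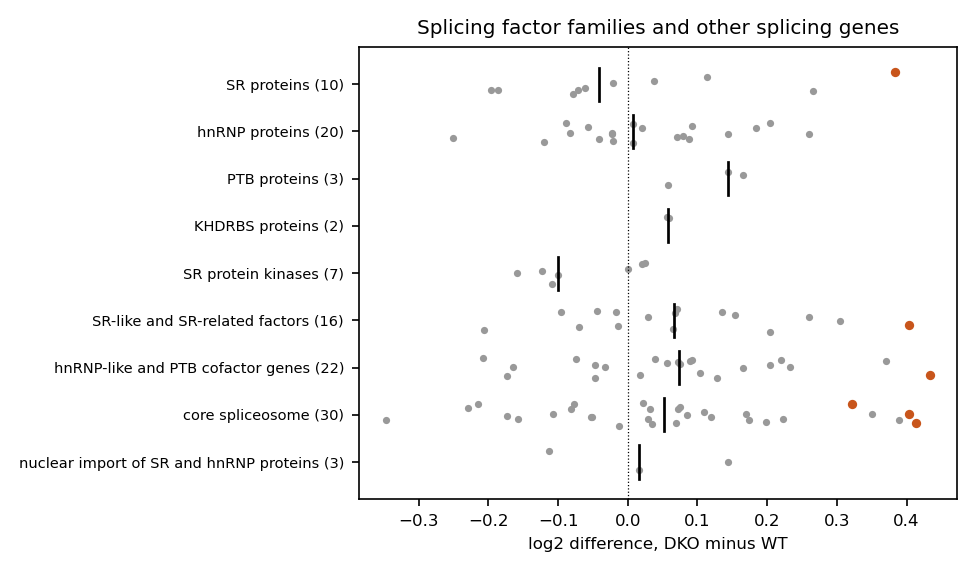
Log2 difference (DKO minus WT, horizontal axis) of each tested gene of the 4 families and of 5 further lists of splicing genes (rows, number of genes in brackets); orange points have an adjusted p under 0.05, grey points do not, and black bars are medians. The called genes are Srsf4, Luc7l, Tia1, Snrpd2, Snrpe and Snrpc, all to the right of 0.

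Some of these genes share sequence with other transcripts, which bears on how reads are split among table rows. For each gene the 31-base words of its GENCODE M21 transcripts were looked up, on both strands, in the transcripts of all other genes. Of the 35 tested genes, 14 shared over 10% of their words with other genes, 17 shared under 5% and the median was 5.54%. Counting only genes that have a row of their own in the deposited table, 6 shared over 10%, 27 under 5% and the median was 1.01%. Which of these transcripts the quantification included is not given in the sources used here. Hnrnpf had the largest share with all genes, 66.2%, with the processed pseudogene Gm6430 alone sharing 31.7% of its words, and 0% with genes that have a row. Pairs within the families shared at most 0.567% of words, so that reads of paralogues such as Hnrnph1 and Hnrnph2 (0.263% and 0.202% shared with family members) can mostly be told apart. Among genes with a row, Srsf4 had the largest share, 40.96%, all of it with Gm12992, a non-coding gene that overlaps its 3′ end on the opposite strand. The table lists Gm12992 at 0.709 to 1.69 TPM, with no call (adjusted p = 0.749). Libraries were strand-specific per the labels, but whether quantification used the strand is not given in the sources used here. On the same strand Srsf4 shared 0% with other rows.

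On the same strand 3 tested genes shared over 10% of words with other rows of the table. Hnrnpa1 shared 29.1%, nearly all with the processed pseudogene Gm10052, which was listed between 0 and 13.4 TPM with no order by group, and Hnrnpa3 shared 22.5%, mainly with Gm6793, which is listed at 0 or near 0 TPM in WT 4 and WT 6, 8.62 TPM in WT 5 and 20.6, 25.8 and 9.45 TPM in DKO. The values of Hnrnpa1 and Hnrnpa3 are uncertain to the extent that such reads were split by estimate. Hnrnpm shared 13.99% with its upstream neighbour March2, whose annotation overlaps its own on the same strand. March2, a membrane-bound ubiquitin ligase, fell, with 88.6, 80.6 and 91.1 TPM in DKO against 118, 115 and 115 TPM in WT (-0.42 on the log2 scale, 95% interval -0.58 to -0.26; adjusted p = 0.0151), while the values of Hnrnpm were the higher ones in DKO. The part of shared reads in either value was not tested.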

How the data were processed

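The values are the authors' deposited TPM, 1 column per library and 1 row per gene symbol, without pooled replicates. The submitters' processing notes name bcl2fastq, kallisto 0.44.0 and the mm10 build. The annotation, the summing of transcripts into genes and the use of strand are not given in any source used here. TPM is relative to the library total, so large changes of abundant RNAs shift all other values.

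Groups follow the titles. The members and lists were chosen with earlier results of these data known. A gene entered the test with 1 TPM or more in 3 or more libraries. The test was limma 3.58.1 (lmFit, then eBayes with a trend; R 4.3.3) on log2(TPM + 1), a scale that understates changes at low TPM, and p-values were adjusted by Benjamini and Hochberg (BH) over 14541 genes. The fit was tested on simulated data. Values per library are given for members called, the 20 with the smallest p, the highest of each family and all PTB and KHDRBS genes, and of each list of other splicing genes for those called and at most 4 by p. Snrpd3, Snrpf, Snrpg, Snrpb, Snrpd1, Gm12992, Gm10052, Gm6793, Gm6430 and March2 were chosen after seeing their values. Positions are RefSeq's (GRCm38.p6), which held all 37 members. Alternatives were pseudocount 0.1, no filter, a 5 TPM filter, 3 scalings (median-ratio, quantile, and without haemoglobin, structural and short RNA), no trend, array weights, WT as the group of replicate 7, a sex-linked term, libraries holding Y-linked transcripts, and leaving out each library.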

Additional observations from a re-analysis of the deposited data

How the results depend on the processing

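The count of 1 splicing factor gene called higher held with pseudocount 0.1, a 5 TPM filter, rescaling without haemoglobin, structural and short RNA, and array weights. It was 0 with no filter, median-ratio scaling, quantile scaling, no trend, replicate 7 as WT, a sex-linked term and among libraries holding Y-linked transcripts, and 0 in each fit that left out 1 library (limma). The count called lower was 0 in all 17 alternatives. The count of other splicing genes called, 5, was 0 without trend, with replicate 7 as WT, with a sex-linked term and among libraries holding Y-linked transcripts, and 0 to 2 when 1 library was left out. This count was 7 with array weights, so genes beyond the 5 were called there. It was 4 or 5 with the pseudocount, filters and scalings tried. It was 2 without WT 5, where Snrpd2 alone of the 5 kept its call. Fewer samples were fitted among libraries holding Y-linked transcripts and when 1 library was left out. With a sex-linked term the difference rested on DKO 9 against the WT libraries, since DKO 7 and DKO 8 alone had Xist. With replicate 7 as WT a single gene of the whole table was called. For the other alternatives the cause was not tested. Without counts, the share of the spread that depth sets cannot be given. Srsf4 had adjusted p (limma, BH) from 0.0399 to 0.548 over the alternatives. None of the other 34 tested genes was called in any of them. The sign of the log2 difference was kept in all alternatives for 19 of 35 genes. It turned for 16 genes that were called in no fit, in 47 values of at most 0.102 in size. With median-ratio scaling, Hnrnpa3 (-0.028), Hnrnph2 (-0.027) and Hnrnpll (-0.013) did so. After rescaling without haemoglobin, structural and short RNA, Hnrnpa3 (-0.010) and Hnrnph2 (-0.0097) did so. With a sex-linked term, and likewise among libraries holding Y-linked transcripts, Hnrnpa3 (-0.0051), Hnrnpdl (0.036), Hnrnph2 (-0.00036), Hnrnph3 (-0.10), Hnrnpl (0.013), Hnrnpll (-0.019), Srsf11 (0.026) and Srsf2 (0.084) did so. With replicate 7 as WT, Hnrnpdl (0.079), Hnrnph3 (-0.084), Hnrnpk (0.060), Hnrnpl (0.043), Hnrnpll (-0.0018), Srsf2 (0.085), Srsf5 (0.017) and Srsf9 (0.013) did so. With array weights, Hnrnpll (-0.0068) did so. With 1 library left out the sign turned in part of the range for Hnrnpa3 (-0.049 to 0.045), Hnrnpdl (-0.10 to 0.024), Hnrnph1 (-0.083 to 0.031), Hnrnph2 (-0.049 to 0.060), Hnrnph3 (-0.020 to 0.16), Hnrnpk (-0.078 to 0.029), Hnrnpl (-0.054 to 0.019), Hnrnpll (-0.034 to 0.054), Khdrbs3 (-0.033 to 0.14), Ptbp2 (-0.025 to 0.13), Srsf1 (-0.0076 to 0.083), Srsf2 (-0.073 to 0.047) and Srsf7 (-0.15 to 0.0069). No paired analysis was possible because the groups share no replicate number.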
